A study of Mus musculus with 6 samples.

Results

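Lipogenesis and lipid droplet genes were examined in liver tumors of mice with and without Nr2e3, a gene for an orphan nuclear receptor. The 40 genes were taken by their symbols from a count table of 24063 genes, and all 40 were found. They comprise 3 regulators of lipogenesis, 7 genes of fatty acid synthesis, 4 desaturases, 5 elongases, 7 genes of triglyceride synthesis, 4 genes of lipolysis, 7 genes of the droplet coat and of droplet fusion, and 3 genes of lipid secretion and plasma lipolysis. RNA-seq compared 3 tumor libraries from WT mice with 3 from Nr2e3-/- mice, all male and of the C57BL/6 strain. Every mouse of both groups had received the liver carcinogen diethylnitrosamine (DEN) at a dose of 25 mg per kg when it was 15 days old, and the tumors were taken at the 24-week time point. The knockout is carried in every cell of the mouse, so the Nr2e3-/- tumors had also grown in Nr2e3-/- livers. No untreated liver was analysed here, and the labels do not tie each library to a mouse, so the p-values measure only the spread between these samples.

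The liver makes fatty acids from citrate. Citrate leaves the mitochondria, is cleaved to acetyl-CoA, is carboxylated to malonyl-CoA and is built into palmitate by fatty acid synthase, and palmitate is then elongated and desaturated. Acyl chains are joined to a glycerol backbone to give triglyceride, which is either packed into very low density lipoprotein or stored in lipid droplets, whose surface carries perilipins and CIDE proteins. The transcription factors SREBP-1 (Srebf1) and ChREBP (Mlxipl) switch many of these genes on in response to insulin and to glucose, respectively, and a high rate of lipogenesis is a known trait of many liver tumors.

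Total counts per library ran from 25250090 to 28690279 in WT and from 15376261 to 28336305 in Nr2e3-/- tumors. Nr2e3 had 0 counts in all 6 libraries, and the labelled genotypes therefore have no check in its own reads. Levels are given below as normalized CPM, the counts per 1e+06 counts of a library after TMM scaling, and means are given ± SD over 3 libraries. The library of Nr2e3-/- replicate 1, the shallowest, stood apart from the other 2 of its group in many members, and the calls that change without it are given both ways. In tissue RNA, fewer cells of a type and less RNA per cell cannot be told apart.

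No member passed the test at an adjusted p under 0.05. In edgeR, 0 of 40 members were called, where 13 of 13572 genes (0.0958%) were called in all, and the smallest adjusted p of a member was 0.0844. At an unadjusted p under 0.05, 1 member was higher in Nr2e3-/- tumors (2.5%, against 11.8% of all genes tested) and 6 were lower (15%, against 9.72%). The 3 libraries of a group all lay above the 3 of the other in 6 members, each time with WT above (15%, against 12.9% of all genes), and in no member with Nr2e3-/- above (against 13.9%). Of the fitted log2 fold changes of Nr2e3-/- over WT, 24 were below 0 and 16 above, with a median of -0.17 where all genes had a median of 0.01. With DESeq2 2 members, Cidea and Plin4, were called at an adjusted p under 0.05, both lower (5%, against 3.25% of genes called lower), and none was called higher (against 4.98%). With limma-voom 5 were called lower (12.5%, against 7.91%) and none higher (against 9.48%). The 6 lower members were the regulator Srebf1, the desaturase Scd2, Gpam and Mogat1 of triglyceride synthesis, and Cidea and Plin4 of the droplet group, and the higher one was Acly.

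**Figure D1:**
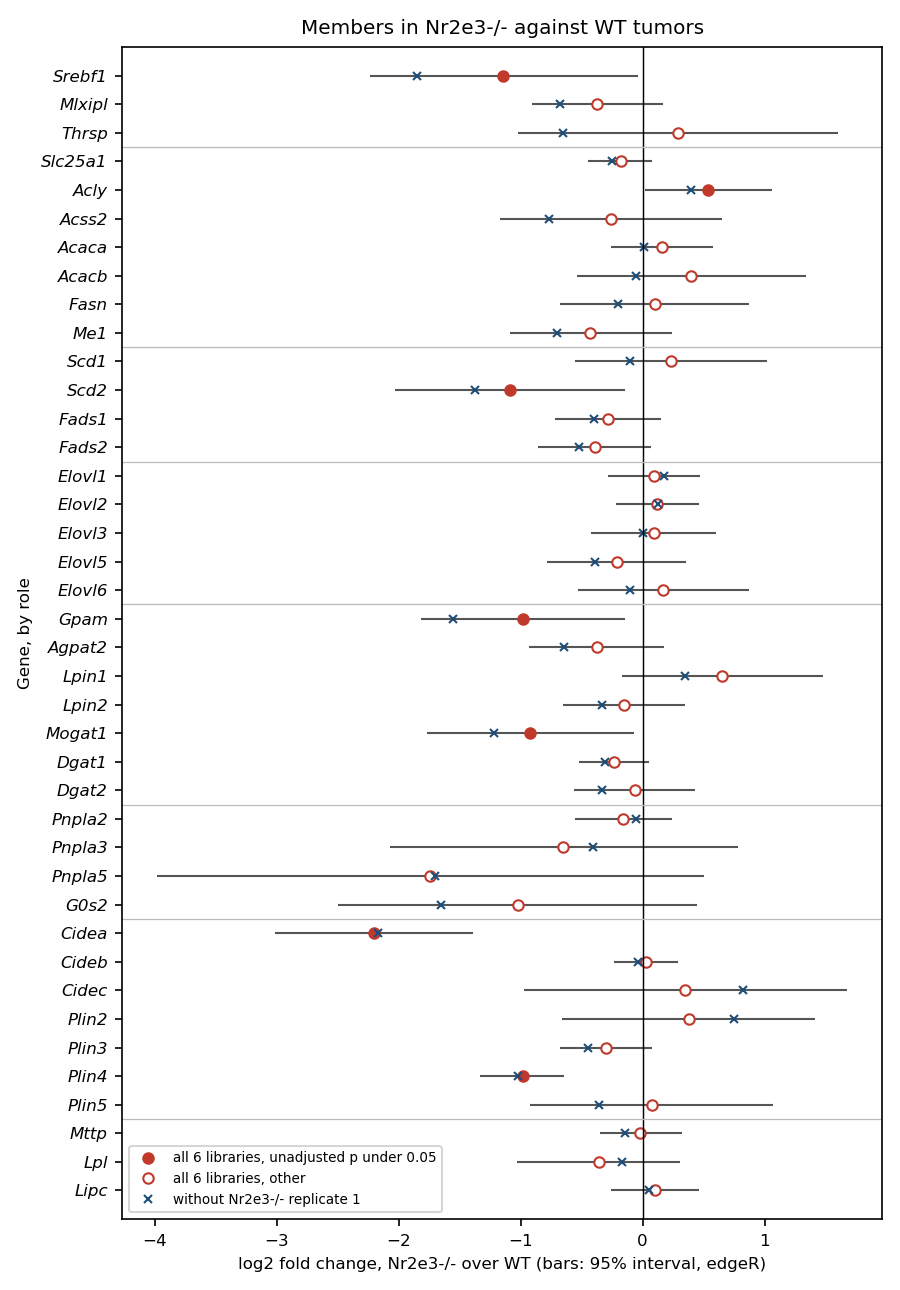
Log2 fold change of Nr2e3-/- over WT (x axis) for the 40 members (y axis, grouped by role), with the 95% interval from edgeR. Filled circles mark the 7 members with an unadjusted p under 0.05, and crosses show the estimate without Nr2e3-/- replicate 1. Cidea and Plin4 keep their position without that library, while Srebf1 and Gpam move further below 0.

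The promoters of members were searched for 5 motifs, in the 250 bases before each start in RefSeq (GRCm38.p6), on both strands. Of the 40 members, 32 had a promoter in the table. The sterol regulatory element TCACNCCAC, a SREBP site, was in the promoter of 1 member (3.12%), against 1.05% of all 32851 promoters, and that member was Mlxipl at its downstream start. The E-box CACGTG, the core of the ChREBP and USF sites, was in 5 members (15.6%, against 6.02%), namely Elovl5, Lpin2, Mlxipl, Pnpla5 and Slc25a1. The CCAAT box, bound by NF-Y, was in 19 (59.4%, against 33.8%), and the GC box GGGCGG, bound by Sp1, in 20 (62.5%, against 32.7%). Among tested genes with a promoter the shares were 1.35%, 9.79%, 40.2% and 61.6%, in the same order, which brings the GC box to the level of the members. The DR4 element, a pair of AGGTCA repeats with 4 bases between them, was in none of the members and in 0.0152% of promoters. The members have 44 starts in all, so a gene with several starts had more sequence to match in, and a match describes letters and not binding. Matches overlapped in 4 promoters, a GC box with a CCAAT box in Elovl1 and matches of the same motif in Agpat2, Fasn and Plin3.

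Of the lower members, 3 are shown with the motif matches in capitals, at the start that held a CCAAT box nearest to it. Mogat1 held none of the motifs, and Cidea and Scd2 had no promoter to search. Mlxipl is shown as the only member that held the sterol regulatory element. Each line is the gene strand from 5′ to 3′ and ends at the base before the start, and a position is that of the leftmost base of a match, counted back from the start.
Plin4, chr17:56109783-56110032, minus strand: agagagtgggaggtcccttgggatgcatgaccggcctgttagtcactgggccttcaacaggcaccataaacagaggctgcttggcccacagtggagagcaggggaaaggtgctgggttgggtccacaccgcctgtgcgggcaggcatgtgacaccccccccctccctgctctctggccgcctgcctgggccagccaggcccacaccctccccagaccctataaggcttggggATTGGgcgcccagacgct
Gpam, chr19:55127239-55127488, minus strand: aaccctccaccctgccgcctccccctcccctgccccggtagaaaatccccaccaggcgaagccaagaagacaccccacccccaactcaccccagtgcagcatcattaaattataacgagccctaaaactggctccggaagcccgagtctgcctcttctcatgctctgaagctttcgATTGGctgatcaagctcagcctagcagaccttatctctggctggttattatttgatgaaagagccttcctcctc
Srebf1, chr11:60210472-60210721, minus strand: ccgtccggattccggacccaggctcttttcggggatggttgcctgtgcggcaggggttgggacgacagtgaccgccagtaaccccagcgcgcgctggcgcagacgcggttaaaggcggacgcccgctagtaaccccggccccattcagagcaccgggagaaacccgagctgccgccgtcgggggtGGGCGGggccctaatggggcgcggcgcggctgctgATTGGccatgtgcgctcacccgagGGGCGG
Mlxipl, chr5:135106641-135106890, plus strand: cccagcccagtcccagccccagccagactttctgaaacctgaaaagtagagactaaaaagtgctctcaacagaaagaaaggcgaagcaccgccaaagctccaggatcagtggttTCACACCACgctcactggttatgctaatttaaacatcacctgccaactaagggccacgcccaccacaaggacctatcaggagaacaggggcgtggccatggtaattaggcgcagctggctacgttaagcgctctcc
The capitals in Plin4 mark a CCAAT box at -18. In Gpam they mark one at -74, and in Srebf1 one at -30 between GC boxes at -65 and -6. The CCAAT boxes of all 3 read ATTGG here because they lie on the opposite strand. In Mlxipl they mark the sterol regulatory element at -136. The other starts held, in Gpam, a GC box at -16, and, in Srebf1, GC boxes at -36 and -14 at one and a CCAAT box at -166 at another. The libraries count reads over whole genes and do not say which start was used.

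The members with the smallest p-values, Cidea and Plin4, both belonged to the 7 genes of the droplet coat and fusion group. Cidea, a CIDE protein that promotes fusion of droplets and is best known from brown fat and from fatty liver, stood at 7.26, 5.75 and 3.81 CPM in the WT libraries (replicates 1 to 3 in order, here and below) and at 1.19, 1.6 and 0.811 CPM in the Nr2e3-/- libraries. All Nr2e3-/- libraries lay below all WT libraries, and the means were 5.61 ± 1.73 and 1.2 ± 0.393 CPM. Its level was 4.59-fold lower (log2 fold change -2.2, SE 0.34, unadjusted p = 0.000324, edgeR adjusted p = 0.0863). These levels rest on 110 to 189 counts per WT library and 15 to 43 per Nr2e3-/- library. Plin4, a perilipin that coats newly formed droplets, was at 18.6, 23.1 and 19.5 CPM in WT and at 11, 8.98 and 11 CPM in Nr2e3-/- tumors. The groups again did not overlap, and the spread within each was narrow, with means of 20.4 ± 2.37 and 10.3 ± 1.17 CPM. Plin4 was 1.98-fold lower (log2 fold change -0.98, SE 0.15, unadjusted p = 0.00023, edgeR adjusted p = 0.0844). Over 13 other settings of the analysis the log2 fold change of Cidea stayed between -2.49 and -1.97 and that of Plin4 between -1.07 and -0.88.

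The other 5 droplet genes had unadjusted p-values of 0.104 and above, and they differed in direction. Plin2, the most abundant perilipin of the liver and the member of this group with the most counts, was at 507, 824 and 407 CPM in WT and at 324, 974 and 960 CPM in Nr2e3-/- tumors. Nr2e3-/- replicate 1 was the lowest of all 6 libraries and replicates 2 and 3 were the highest (log2 fold change 0.38, SE 0.44, unadjusted p = 0.42). Cidec, which channels lipid from small to large droplets and rises in fatty liver, followed the same order. It was at 33.9, 44 and 24.8 CPM in WT and at 10.9, 57.5 and 62.4 CPM in Nr2e3-/- tumors, with a log2 fold change of 0.35. When Nr2e3-/- replicate 1 was left out, Cidec had a log2 fold change of 0.82 with an adjusted p of 0.0431 in edgeR, and Plin2 had 0.75 with an adjusted p of 0.105. Plin3, a perilipin found on small droplets and in the cytosol, had a log2 fold change of -0.30, Plin5, which tethers droplets to mitochondria, one of 0.08, and Cideb, which loads lipid onto lipoprotein particles, one of 0.03. Cideb shares 76.3% of its exon bases with Nop9 on the opposite strand, and the kit named in the labels is not described as stranded, so reads of these genes cannot be told apart.

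**Figure D2:**
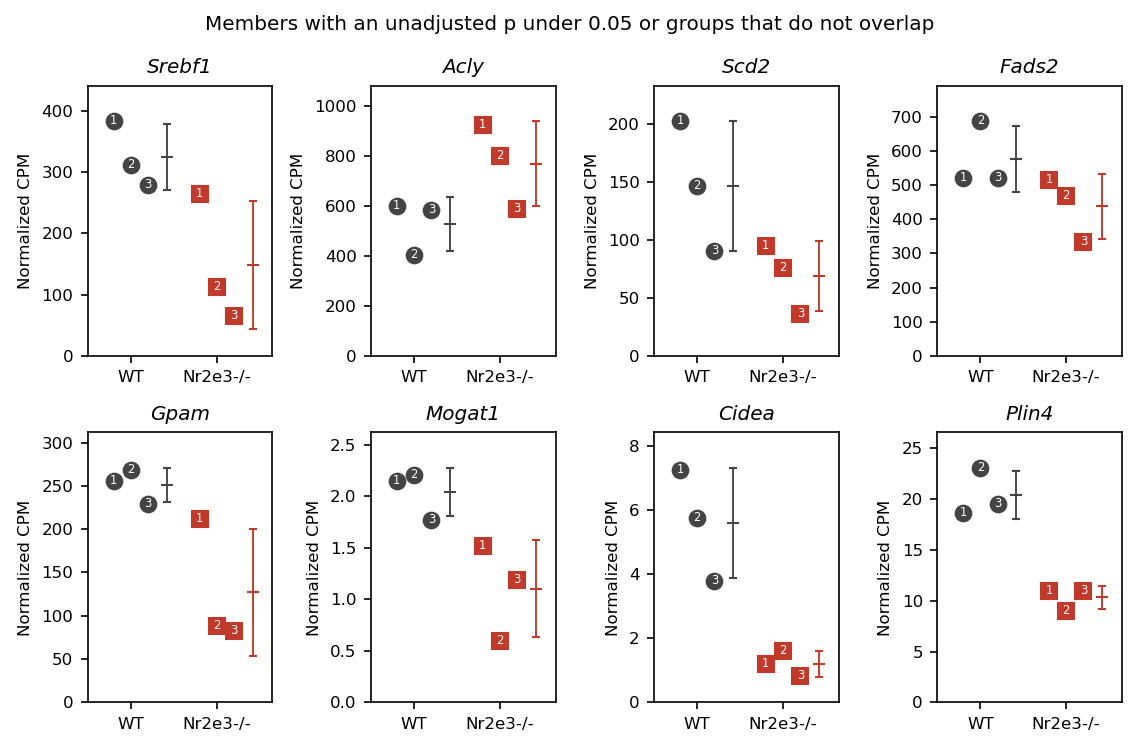
Normalized CPM (y axis, from 0) in each library for the 8 members with an unadjusted p under 0.05 or with groups that do not overlap. Numbers in the symbols are replicate numbers, and bars show the mean ± SD of 3 libraries. Cidea and Plin4 separate the groups by a wide gap, while in Srebf1 and Gpam Nr2e3-/- replicate 1 lies close to WT.

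Among the regulators, Srebf1 was lower in Nr2e3-/- tumors. Its levels were 383, 312 and 279 CPM in WT and 265, 113 and 65.3 CPM in Nr2e3-/- tumors, with means of 324 ± 53.2 and 148 ± 104 CPM. The groups did not overlap, but Nr2e3-/- replicate 1 came within a short distance of the lowest WT library. The difference was 2.2-fold (log2 fold change -1.14, SE 0.46, unadjusted p = 0.0435, edgeR adjusted p = 0.219), and leaving out Nr2e3-/- replicate 1 gave a log2 fold change of -1.85 with an adjusted p of 0.00778. Mlxipl was at 197, 199 and 235 CPM in WT and at 226, 128 and 134 CPM in Nr2e3-/- tumors. Nr2e3-/- replicates 2 and 3 were below every WT library and replicate 1 was among them, so the log2 fold change was -0.37 (unadjusted p = 0.148) with all libraries and -0.68 (edgeR adjusted p = 0.0133) without that one. Thrsp, a small protein of lipogenic tissues that is known to follow insulin and thyroid hormone and the regulator with the most counts, was at 387, 230 and 287 CPM in WT and at 725, 240 and 141 CPM in Nr2e3-/- tumors. One Nr2e3-/- library was the highest and another the lowest of all 6, and the log2 fold change of 0.29 had an SE of 0.56 (unadjusted p = 0.616). It was -0.65 without Nr2e3-/- replicate 1.

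The log2 fold changes of the 7 genes of fatty acid synthesis lay on both sides of 0, with 4 above and 3 below. In all 7, as in Srebf1, Nr2e3-/- replicate 1 was the highest and replicate 3 the lowest library of its group. Acly, which cleaves citrate to acetyl-CoA in the cytosol, was the only member higher at an unadjusted p under 0.05. It lies at chr11:100476352-100528000 on the minus strand (GRCm38, start and end from RefSeq, as are the positions below). It was at 599, 402 and 582 CPM in WT and at 922, 799 and 586 CPM in Nr2e3-/- tumors. Replicate 3 of the Nr2e3-/- group lay within the WT range, and the difference was 1.46-fold (log2 fold change 0.54, SE 0.22, unadjusted p = 0.0427, edgeR adjusted p = 0.218). Fasn, fatty acid synthase, was at 1350, 798 and 951 CPM in WT and at 1530, 1140 and 650 CPM in Nr2e3-/- tumors. Its highest and its lowest library were both Nr2e3-/-, with a log2 fold change of 0.10 (SE 0.33, unadjusted p = 0.776) and a 95% interval from -0.68 to 0.87. The acetyl-CoA carboxylases, which make malonyl-CoA, had log2 fold changes of 0.16 (Acaca, the cytosolic form) and 0.40 (Acacb, the form at the mitochondrial surface). Slc25a1, the citrate carrier, had one of -0.18, Acss2, which makes acetyl-CoA from acetate, one of -0.26, and Me1, the malic enzyme that supplies NADPH, one of -0.43. For these 5 genes the unadjusted p ran from 0.146 to 0.521.

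Scd1, the stearoyl-CoA desaturase that makes oleate and palmitoleate (chr19:44394450-44407709, minus strand), was by far the most abundant member. It took 38.7 to 56.7% of the counts of all 40 members, and per length it had a mean of 1790 CPM per kb of exon in WT tumors, ahead of Dgat2 with 177. Its levels were 10800, 5750 and 9750 CPM in WT and 14700, 8910 and 7320 CPM in Nr2e3-/- tumors. The groups overlapped, and the log2 fold change was 0.23 (SE 0.33, unadjusted p = 0.504). Scd2, a close paralog that dominates in brain and early life and lies nearby at chr19:44293676-44306864 on the plus strand, was at 202, 146 and 90.1 CPM in WT and at 94.5, 75.8 and 35.9 CPM in Nr2e3-/- tumors. A single pair of libraries overlapped, WT replicate 3 with Nr2e3-/- replicate 1, and the level was 2.12-fold lower (log2 fold change -1.09, SE 0.40, unadjusted p = 0.0298, edgeR adjusted p = 0.189). The pair shares similar sequence, so reads could be split between them, and with Scd1 at such levels the counts of Scd2 are uncertain in part. Fads2, the delta-6 desaturase of polyunsaturated fatty acids at chr19:10062765-10101503 on the minus strand, was at 521, 687 and 520 CPM in WT and at 514, 469 and 332 CPM in Nr2e3-/- tumors. Its groups did not overlap, though by a margin of a few CPM, and the log2 fold change was -0.39 (SE 0.20, unadjusted p = 0.0873). Fads1, the delta-5 desaturase beside it on chromosome 19, had a log2 fold change of -0.28.

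The 5 elongases were the least different group, with log2 fold changes from -0.21 to 0.17 and unadjusted p-values of 0.411 and above. Elovl2, which lengthens polyunsaturated chains and had the most counts of the group, was at 589, 624 and 727 CPM in WT and at 708, 789 and 613 CPM in Nr2e3-/- tumors. The ranges overlapped (log2 fold change 0.12, SE 0.15, unadjusted p = 0.429), and the 95% interval from -0.22 to 0.46 bounds the difference. Elovl6, which turns palmitate into stearate and is a known SREBP-1 target, had a log2 fold change of 0.17, and Elovl5, which acts on polyunsaturated chains, had one of -0.21.

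In triglyceride synthesis 6 of 7 genes had a log2 fold change below 0. Gpam, the mitochondrial acyltransferase of the first step from glycerol-3-phosphate, was at 256, 268 and 229 CPM in WT and at 212, 87.8 and 82.3 CPM in Nr2e3-/- tumors. The groups did not overlap, and Nr2e3-/- replicates 2 and 3 lay far below replicate 1, which was just under WT. The difference was 1.98-fold (log2 fold change -0.98, SE 0.36, unadjusted p = 0.0279, edgeR adjusted p = 0.184), and without Nr2e3-/- replicate 1 the log2 fold change was -1.55 with an adjusted p of 0.00156, the smallest of any member there. Mogat1, a monoacylglycerol acyltransferase that is scarce in normal liver (chr1:78511060-78606964, plus strand), was at 2.15, 2.2 and 1.77 CPM in WT and at 1.52, 0.594 and 1.19 CPM in Nr2e3-/- tumors. Its groups did not overlap either, on 51 to 65 counts per WT library and 16 to 23 per Nr2e3-/- library, with a log2 fold change of -0.92 (SE 0.36, unadjusted p = 0.037, edgeR adjusted p = 0.205). It had the lowest level per length of all members, 1.31 CPM per kb in WT, and 12.8% of its exon bases overlap BC035947 on the opposite strand.

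Dgat2, which adds the last acyl chain to newly made diacylglycerol and had the most counts of the group, was at 535, 567 and 540 CPM in WT and at 707, 412 and 453 CPM in Nr2e3-/- tumors. The WT libraries were close to each other, and the Nr2e3-/- libraries lay on both sides of them (log2 fold change -0.06, SE 0.21, unadjusted p = 0.769). Dgat1, the other enzyme of that step, had a log2 fold change of -0.23, Agpat2, the acyltransferase of the step after Gpam, one of -0.37, and Lpin2, a phosphatidate phosphatase, one of -0.15. Lpin1, a phosphatase of the same family that also acts in the nucleus as a coactivator, had a log2 fold change of 0.65 (SE 0.35, unadjusted p = 0.104), the highest of all members with all 6 libraries, and one of 0.35 without Nr2e3-/- replicate 1, where those of Cidec and Plin2 were above it. Its levels of 355, 216 and 380 CPM in WT and 694, 279 and 523 CPM in Nr2e3-/- tumors overlapped.

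All 4 genes of lipolysis had a log2 fold change below 0, and none had an unadjusted p under 0.05. Pnpla2, the adipose triglyceride lipase ATGL and the one with the most counts, was at 93.7, 82.9 and 110 CPM in WT and at 73.4, 80.2 and 104 CPM in Nr2e3-/- tumors. The groups overlapped through Nr2e3-/- replicate 3 (log2 fold change -0.16, SE 0.17, unadjusted p = 0.381). G0s2, the inhibitor of that lipase, was at 57.9, 88.1 and 47.1 CPM in WT and at 54.2, 7.02 and 34.3 CPM in Nr2e3-/- tumors, and its log2 fold change was -1.02 with an SE of 0.63. It was -1.65 (unadjusted p = 0.0355) without Nr2e3-/- replicate 1 and -0.54 without Nr2e3-/- replicate 2. Pnpla3 and Pnpla5, lipases of the same family whose liver mRNA is known to follow feeding and SREBP-1, varied widely. Pnpla5 spanned 3.23 to 30.8 CPM in WT and 0.757 to 7.35 CPM in Nr2e3-/- tumors, and Pnpla3 spanned 10.3 to 17.9 and 2.76 to 18.5 CPM. Of the genes of secretion and plasma lipolysis, Mttp, which loads triglyceride onto apolipoprotein B, was at 411, 389 and 413 CPM in WT and at 472, 339 and 388 CPM in Nr2e3-/- tumors. Nr2e3-/- replicates lay on both sides of WT (log2 fold change -0.02, SE 0.14, unadjusted p = 0.912). The plasma lipases had log2 fold changes of -0.36 (Lpl, lipoprotein lipase) and 0.10 (Lipc, hepatic lipase), with unadjusted p-values of 0.248 and 0.54.

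**Figure D3:**
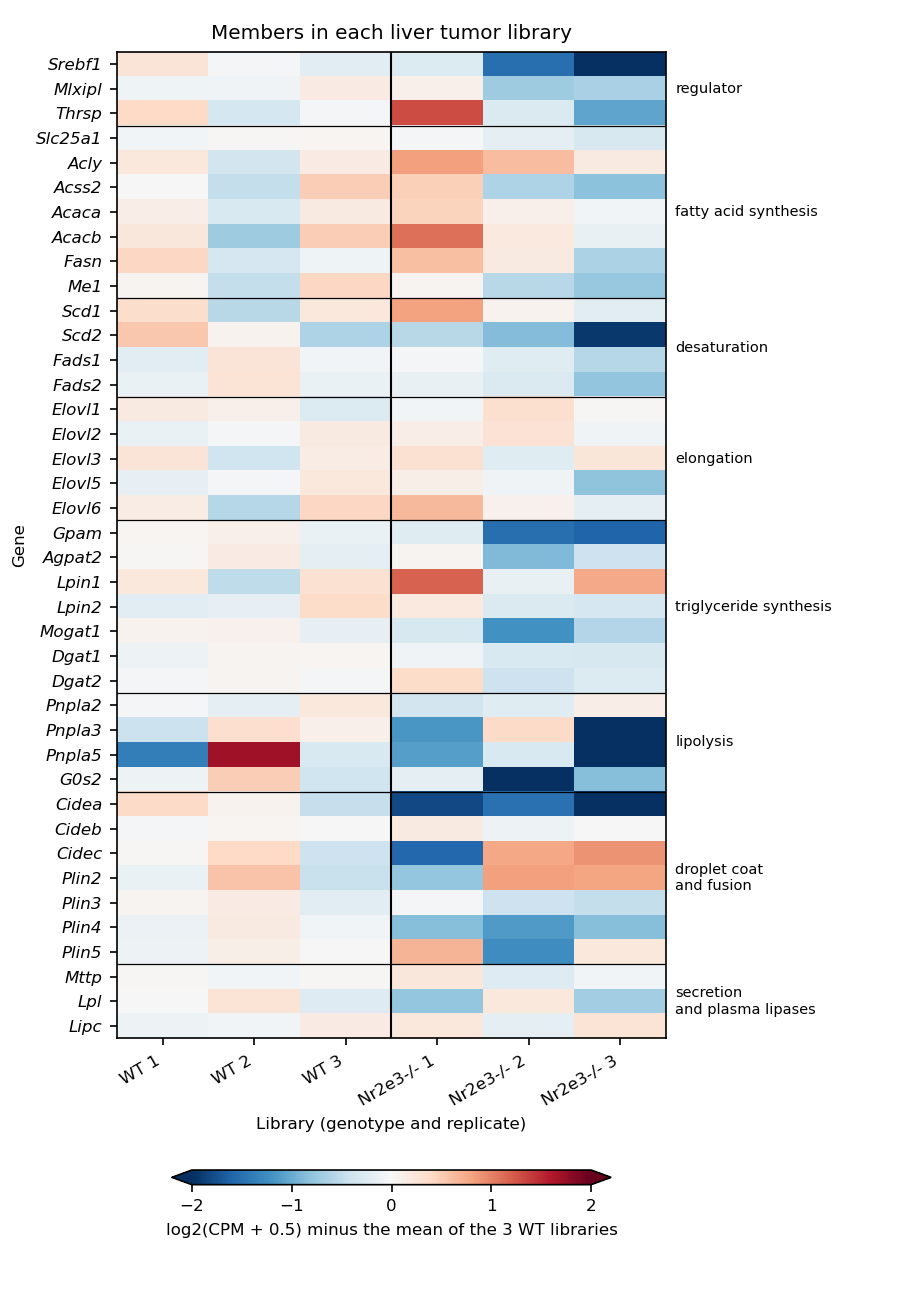
Log2(CPM + 0.5) of each member (y axis, grouped by role) in each library (x axis) minus the mean of the 3 WT libraries. Blue is below and red above the WT mean, and the scale ends at 2 on either side. Nr2e3-/- replicate 1 is red in much of fatty acid synthesis, while replicates 2 and 3 are blue in most of triglyceride synthesis.

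The heat map shows that Nr2e3-/- replicates 2 and 3 shared a pattern that replicate 1 did not. Both lay below all WT libraries in 19 of 40 members (47.5%, against 27.5% of all genes tested), and both lay above in 2 members, Cidec and Plin2 (5%, against 27.7%). In 13 of the 19 (68.4%), replicate 1 lay within the WT range or above it, as it did in 53.1% of all genes with replicates 2 and 3 below WT, so that its distance from them was not limited to the members. By role, the 19 comprised 6 of 7 genes of triglyceride synthesis, 3 of 4 desaturases, 2 of 3 regulators, 3 of 7 genes of fatty acid synthesis, 3 of 7 droplet genes, 1 of 4 lipolysis genes, 1 of 3 genes of secretion and 0 of 5 elongases. The median log2 deviation of the members from the WT mean was 0.06 in replicate 1, -0.25 in replicate 2 and -0.38 in replicate 3, where all genes had -0.01, 0.01 and -0.02. In Nr2e3-/- replicates 1, 2 and 3 in turn, 27.5%, 57.5% and 62.5% of members lay below all 3 WT libraries, and 33.1%, 38.2% and 39.6% of all genes did.

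Without Nr2e3-/- replicate 1, 7 members passed an adjusted p under 0.05 in edgeR. The 6 lower ones were Srebf1, Mlxipl, Gpam, Agpat2, Cidea and Plin4 (15% of members, against 9.65% of genes called lower), and the only higher one was Cidec (2.5%, against 12.2% of genes called higher). In that fit Agpat2 had a log2 fold change of -0.64 with an adjusted p of 0.0458. Cidea and Plin4 had -2.17 and -1.02, with adjusted p-values of 0.0148 and 0.00848. The genes of fatty acid synthesis stayed off the list, with Acss2 at -0.77 (adjusted p = 0.0947) and Me1 at -0.70 (adjusted p = 0.0957) the nearest to it. Leaving out any other library left 0 members called, where 0 to 18 of all genes tested were called, at most 0.131%.

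Nr2e3-/- replicate 1 also differed from replicates 2 and 3 in its acute phase genes. The summed level of 9 acute phase genes was 6180 to 9190 CPM in WT, 8910 CPM in Nr2e3-/- replicate 1 and 22200 and 19000 CPM in replicates 2 and 3, and 7 of the 9 were higher at an unadjusted p under 0.05. Replicate 1 was above every WT library in 5 of the 9, with Saa1 at 138 CPM against at most 49.3 in WT, and replicates 2 and 3 had 1030 and 1090 CPM of it. The 4 neutrophil markers in the table summed to 1.49 to 2.74 CPM in WT, 2.32 CPM in replicate 1, and 22.1 and 13.1 CPM in replicates 2 and 3. Clock genes, which set the daily rhythm of lipogenesis, summed to 751 to 833 CPM in WT and to 734, 586 and 588 CPM in Nr2e3-/- replicates 1, 2 and 3, and 2 of 11 tested, Per3 and Dbp, were lower at an unadjusted p under 0.05. The 9 genes raised by fasting overlapped between groups in their sum, from 4440 to 6070 CPM in WT and from 3510 to 5880 CPM in Nr2e3-/- tumors. The part of these in the differences of the members was not tested.

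Markers of other cells were also measured. The 8 hepatocyte markers summed to 124000 to 152000 CPM in WT and 111000 to 132000 CPM in Nr2e3-/- tumors, most of it from Alb. Of the 8, 5 had a log2 fold change above 0, with a median of 0.22, and 3 (Hnf4a, Tat and Serpina1c) were higher at an unadjusted p under 0.05 where 0 were lower. Of the adipocyte markers, Plin1 was at 0 in every library and Adipoq, Lep, Retn and Ucp1 did not exceed 0.0677 CPM. Cfd, the adipocyte marker also known as adipsin, was lower in Nr2e3-/- tumors like Cidea (log2 fold change -2.13, unadjusted p = 0.000476, edgeR adjusted p = 0.093), Fabp4 was higher (0.83), and the sum of the 8 markers was 16.8 to 25 CPM in WT and 23.9 to 31.4 CPM in Nr2e3-/- tumors. The part of fat cells in the levels of Cidea and Plin4 was not tested. Macrophages, which also make Plin2, had 8 markers summing to 305 to 388 CPM in WT and to 265, 685 and 348 CPM in Nr2e3-/- tumors. Their part in the levels of Plin2 was not tested. In WT and Nr2e3-/- tumors in turn, the sums were 314 to 329 and 277 to 335 CPM for endothelial markers. Of the 6 endothelial markers, Lyve1 was higher (log2 fold change 0.82) and Kdr lower (-0.61) at an unadjusted p under 0.05 in edgeR. The sums were 359 to 442 and 221 to 402 CPM for stellate cell and fibroblast markers, and 57.3 to 119 and 69.1 to 429 CPM for bile duct markers. Most of the bile duct sum came from Spp1, and of the 5 bile duct markers tested 3 had a log2 fold change above 0 and 2 below. Lymphocyte markers summed to 15.4 to 27 and 10.3 to 35.8 CPM, and male-biased liver genes to 5470 to 10300 and 14500 to 19600 CPM. Of the 5 lymphocyte markers, Cd79a (-1.36) and Ms4a1 (-1.49) were lower at an unadjusted p under 0.05, at low levels of at most 0.846 CPM, and 0 were higher.

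A further 87 genes of the pathway that are not members were counted, of which 82 were tested. At an unadjusted p under 0.05, 7 were higher (8.54%, near the 11.8% of all genes) and 9 were lower (11%, near the 9.72%), and 0 passed an adjusted p under 0.05 in edgeR, where DESeq2 called 5 higher (6.1%) and 7 lower (8.54%) and limma-voom 3 higher (3.66%) and 14 lower (17.1%). The shares of all genes called were 4.98% and 3.25% with DESeq2 and 9.48% and 7.91% with limma-voom. Lower in Nr2e3-/- tumors was Pparg, the nuclear receptor that drives fat storage genes, among them Cidea, Cidec, Plin4 and Mogat1. It was at 16.7, 18.6 and 16 CPM in WT and at 6.42, 10 and 6.81 CPM in Nr2e3-/- tumors (log2 fold change -1.13, SE 0.19, unadjusted p = 0.000574, edgeR adjusted p = 0.093). All 3 Nr2e3-/- libraries lay below WT, replicate 1 included. Of the members named with Pparg, Cidec was not lower (log2 fold change 0.35). The part of Pparg in the levels of the members was not tested. The fatty acid carrier Cd36 was at 146, 162 and 123 CPM in WT and at 96.9, 80.9 and 67.6 CPM in Nr2e3-/- tumors (log2 fold change -0.81, unadjusted p = 0.00165). These groups did not overlap either.

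Partners of uptake and secretion made up 4 of the 9 lower genes, Cd36 included. Vldlr, the very low density lipoprotein receptor, was at 5.03, 5.21 and 4.72 CPM in WT and at 2.05, 0.334 and 0.757 CPM in Nr2e3-/- tumors (log2 fold change -2.33). Angptl8, an insulin-driven inhibitor of lipoprotein lipase that the table lists under the older symbol Gm6484, was at 160, 149 and 119 CPM in WT and at 58.8, 23.4 and 29.5 CPM in Nr2e3-/- tumors (log2 fold change -1.94, unadjusted p = 0.000649). Angptl4, an inhibitor of the same lipase that fasting raises, was the opposite, at 75.5, 81.4 and 95.1 CPM in WT and at 156, 145 and 220 CPM in Nr2e3-/- tumors (log2 fold change 1.05, unadjusted p = 0.000658). The groups of all 3 genes were apart. The triglyceride hydrolase Ces1d (-1.12), the front-end desaturase relative Fads3 (-1.13), the droplet protein Fitm1 (-0.69), the lysosomal acid lipase Lipa (-0.45) and the pyruvate kinase Pklr (-0.35) were also lower by their log2 fold changes. Higher were Acsl4, which activates arachidonate (1.13), the ATGL activator Abhd5 (0.49), the droplet GTPase Rab18 (0.47), P4hb, a subunit of the Mttp complex (0.31), and the fructose gene Tkfc (0.33), listed as Dak.

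**Figure D4:**
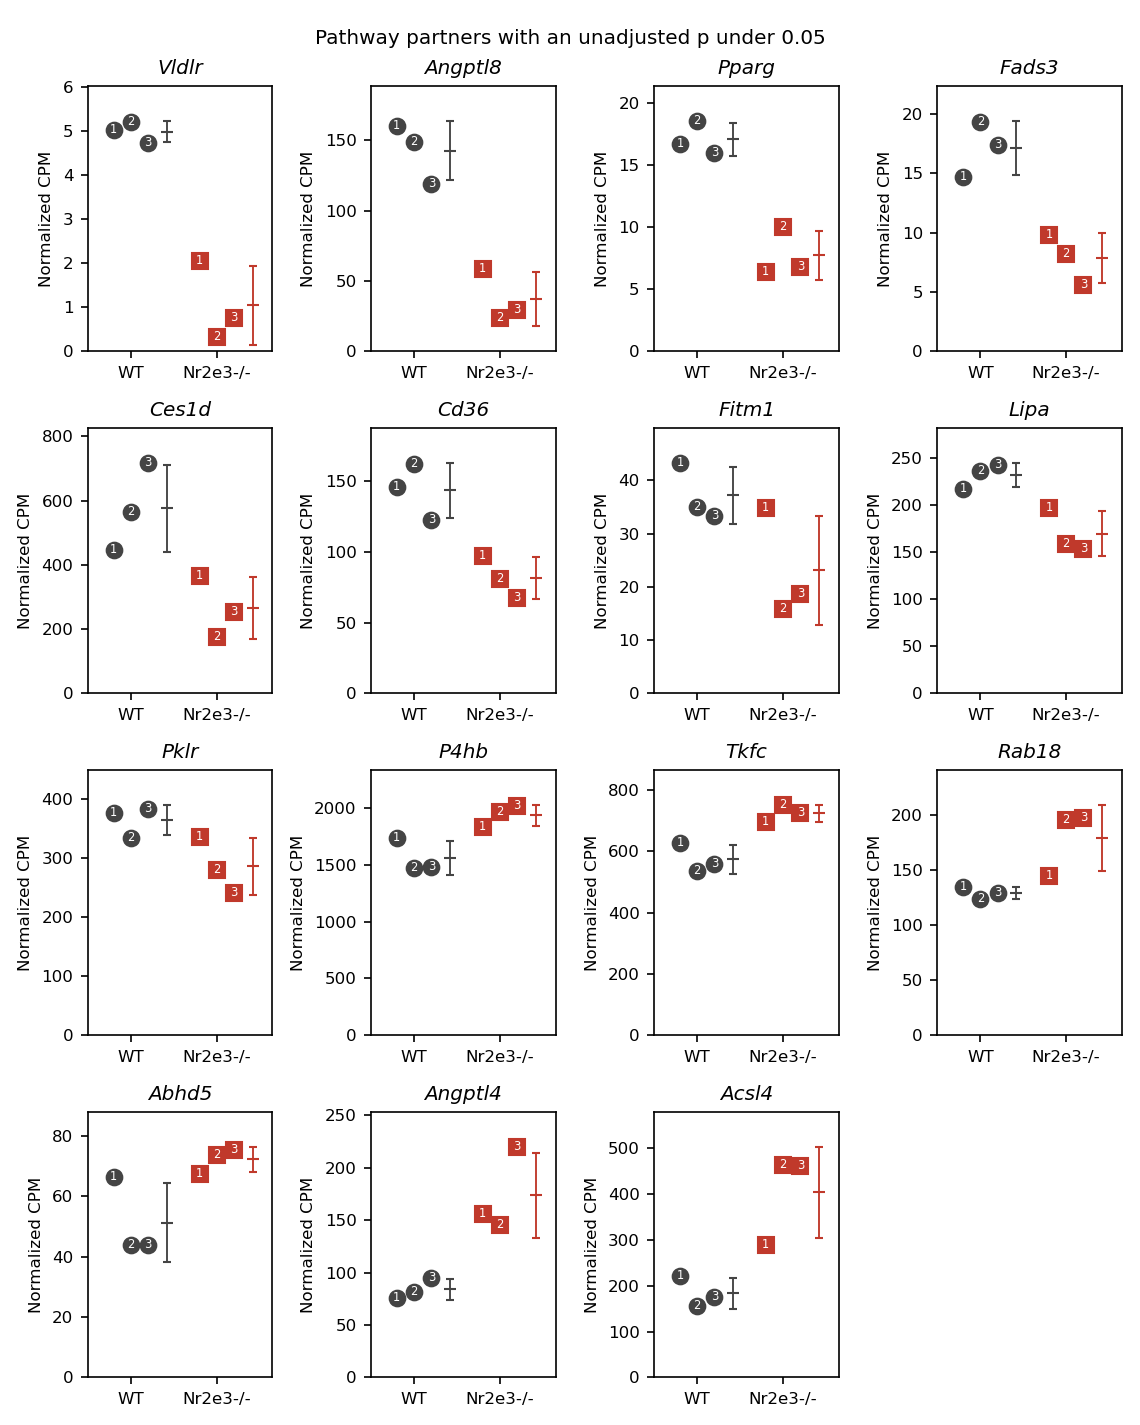
Normalized CPM (y axis, from 0) in each library for 15 pathway partners with an unadjusted p under 0.05, ordered by log2 fold change. Numbers in the symbols are replicate numbers, and bars show the mean ± SD of 3 libraries. Vldlr, Angptl8, Pparg, Fads3, Ces1d, Cd36 and Lipa have all WT libraries above all Nr2e3-/- libraries.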

How the data were processed

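RNA from liver tumors was sequenced from TruSeq RNA libraries as single-end reads. The authors aligned the reads to mm10 with TopHat and counted them per gene with featureCounts, per the submitters' processing notes and the study's methods, and deposited raw counts. The strand setting is not given in the sources used here. A normalized table and a table of the authors' fold changes and p-values were not used. Groups follow the genotype in the sample titles, and dose, age and time point come from the study.

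Counts were tested with edgeR 4.0.16 in R 4.3.3 over all genes (filterByExpr, minimum count 10, minimum total 15, TMM, quasi-likelihood F test, two-sided, Benjamini-Hochberg adjustment over 13572 genes, threshold 0.05), and all 40 members passed the filter. Alternatives were RLE and upper quartile normalization, DESeq2 1.42.0, limma-voom (limma 3.58.1) with quality weights, a filter that asks only for 1 count in all, one that asks for 10 counts in each of the 6 libraries, a replicate block and leaving out each library. The fits were tested on simulated data. Log2 deviations used a pseudocount of 0.5. Figures were drawn with matplotlib 3.10.9. Exon lengths and overlaps came from GENCODE M21 (GRCm38). The depth of 15376261 to 28690279 counts covers counting error only.

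The members, the pathway and marker lists, the tests and the alternatives were chosen with earlier results of these data known. Every member was accounted for. All 6 library values were given for members with an unadjusted p under 0.05 or groups without overlap and for the member of each role with the most counts, and Mlxipl, Lpin1, Cidec and G0s2 were added after their values were seen. Of the pathway lists, genes with an unadjusted p under 0.05 were named, except 1 that entered the counts and is not reported here.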

Additional observations from a re-analysis of the deposited data

How the results depend on the processing

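The count of 0 members with an adjusted p under 0.05 was 2 with DESeq2 and 5 with limma-voom (Cidea, Gpam, Plin4, Scd2 and Srebf1). It was 2 without a filter (Cidea and Plin4) and 0 to 7 when 1 library was left out, the 7 without Nr2e3-/- replicate 1. Of all genes, 8.23% were called with DESeq2, 17.4% with limma-voom, 0.372% without a filter and 21.8% without Nr2e3-/- replicate 1. The count of 1 member higher at an unadjusted p under 0.05 was 0 with upper quartile normalization, 0 with limma-voom, 2 with the replicate block and 0 to 2 without 1 library. The share of all genes higher at that threshold was 11.8% in the fit reported above and 8.12% with upper quartile normalization. It was 18.8% with limma-voom, 8.97% with the block and 6.67 to 19.9% without 1 library. The count of 6 lower was 17 with limma-voom (42.5%, against 17.9% of all genes) and 2 to 16 without 1 library, lowest without WT replicate 2 or Nr2e3-/- replicate 3 and highest without Nr2e3-/- replicate 1 (40%, against 17.8%). Members whose groups did not overlap numbered 6 to 20 without 1 library, the 20 without Nr2e3-/- replicate 1. Under the scaling of all 6 libraries, Nr2e3-/- replicates 2 and 3 lay below all WT libraries in 27.5% of all genes and above in 27.7%. The median log2 fold change of members ran from -0.33 to -0.04. Pathway partners with an unadjusted p under 0.05, 16 of 82 tested, were 30 with limma-voom and 10 to 33 without 1 library. The 33 were without Nr2e3-/- replicate 1. Of all genes, 18.8% were higher and 17.9% lower at that threshold with limma-voom, and 19.9% and 17.8% without that library.

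Some members changed sign, among them Acacb and Thrsp, which had log2 fold changes of 0.40 and 0.29 in the fit reported above. The log2 fold change was -0.05 for Cideb with upper quartile normalization, which moved the median of all genes to -0.08. With limma-voom it was -0.59 for Thrsp, -0.32 for Fasn, 0.01 for Pnpla2 and -0.05 for Plin5. With the replicate block it was -0.01 for Thrsp and -0.10 for Plin5. Without 1 library it ran from -0.65 to 0.68 for Thrsp, -0.77 to 0.03 for Acss2, -0.05 to 0.66 for Acacb, -0.20 to 0.37 for Fasn, -0.10 to 0.43 for Scd1, -0.04 to 0.18 for Elovl1, -0.08 to 0.25 for Elovl3, -0.39 to 0.02 for Elovl5, -0.10 to 0.38 for Elovl6, -0.33 to 0.06 for Lpin2, -0.33 to 0.09 for Dgat2, -0.04 to 0.09 for Cideb, -0.36 to 0.47 for Plin5 and -0.14 to 0.09 for Mttp. The cause was not tested.

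Correlations of same-numbered deviations were -0.09, 0.23 and 0.02, and those of differently numbered libraries ran from -0.28 to 0.24. Deviations of 3 libraries a group are too few to settle whether replicate numbers pair the samples. The block left 0 genes called in all, and it spends further terms on the same libraries. With 3 libraries a group, differences such as that of Lpin1, with a 95% interval from -0.17 to 1.48, could not be separated from 0.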
